A study of Mus musculus with 4 samples.

Results

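The Sertoli cell genes CLDN11, DEFB36, AARD, BASP1, CST12, CST9, SOX9 and KITL were examined in every barcode of single cell RNA-seq libraries of mouse testes. These 8 genes, of 25824 gene symbols in the count tables, were taken by name, with earlier results of these data known. Summed over all barcodes of a mouse, each of the 8 was higher in both Ctcf-cKO mice than in both WT mice, by 6.26-fold for CST9 to 13.5-fold for CST12. Their counts were found in barcodes of every kind: in 13 that resembled Sertoli cells, in cells that resembled germ cells or other somatic cells, and in barcodes below the limits set here for a cell, both those with under 200 genes and those with more. AARD was at nearly the same level in germ-like cells as in barcodes under 200 genes of the same Ctcf-cKO mouse, whereas SOX9 had a single count in the germ-like cells of both Ctcf-cKO mice together.

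Sertoli cells are the somatic cells of the seminiferous tubule. They surround the developing germ cells, join each other with tight junctions that form the blood-testis barrier, and feed and signal to the germ cells. CLDN11 (claudin 11) builds these tight junctions. SOX9 is the transcription factor that sets the Sertoli cell fate in the embryonic testis. KITL, also called stem cell factor, is the ligand that signals to the receptor KIT on spermatogonia, and Leydig cells of the interstitium carry KIT as well. DEFB36 belongs to the beta-defensins, small secreted peptides, and CST9 and CST12 are secreted proteins of the cystatin family, whose founding members inhibit cysteine proteases. BASP1 is a membrane-bound signalling protein that also acts in the nucleus as a partner of WT1. AARD is a small protein with an alanine and arginine rich domain.

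The libraries came from testes of 2 WT mice (replicates 1 and 2, labelled Ctcf wt/wt) and 2 Ctcf-cKO mice (replicates 1 and 3, Stra8-iCre-Ctcf f/Δ), all on the background labelled C56BL/6J and 15 weeks of age by label. The study's methods describe the WT mice as littermates that could also carry floxed alleles without Cre. In the Ctcf-cKO mice the Stra8 promoter drives Cre in germ cells, and the other allele of Ctcf is already deleted, so a Sertoli cell of these mice would keep a single floxed allele. Tubules were digested with collagenase and filtered through a mesh, the filtrates from a pair of tubes of the Ctcf-cKO mouse were combined, and each mouse gave 1 library of 3′ ends from ddSEQ droplets, in which every droplet marks its RNA with a barcode.

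The libraries held 6701235 and 4859455 counts in WT versus 2652665 and 1593546 in Ctcf-cKO mice, over 5603 to 6474 barcodes each. Values of a pair of mice are given in the order of WT replicates 1 and 2 or Ctcf-cKO replicates 1 and 3. The Ctcf-cKO libraries were the shallower ones, without a batch in the labels, so depth and genotype cannot be told apart. CTCF itself had 110 and 49 counts in WT versus 4 and 7 in Ctcf-cKO mice, which was 16.4 and 10.1 CPM (scaled to 1000000 counts of the library, or of the group of barcodes named) against 1.51 and 4.39. Whether the counted 3′ end of CTCF lies in the deleted stretch is not given in the sources used here. A cell was a barcode with at least 3 times the count of the flat stretch of its library's rank curve, which gave 96 and 241 cells of the WT mice, then 228 and 246 of the Ctcf-cKO mice. Barcodes below that limit are taken here as droplets without a cell, which hold RNA free in the suspension, but whether some held a small cell was not tested. Pairs of libraries shared 723 to 1310 barcodes, but at most 1 barcode among the cells.

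DEFB36, CST9 and CST12 all lie on chromosome 2 of GRCm38. CST12 spans 148789361 to 148793546 and CST9 spans 148835147 to 148838738, both on the forward strand, so that these cystatin genes are neighbours. DEFB36 spans 152604327 to 152612729 on the forward strand and overlaps Gm14163, annotated on the same strand, so counts could be split between them. CLDN11 lies on chromosome 3 from 31149920 to 31164324 and has 3 exons. AARD (52040107 to 52045722, forward) and BASP1 (25363277 to 25413764, reverse) are on chromosome 15. SOX9 lies on chromosome 11 from 112782224 to 112787760, and KITL on chromosome 10 from 100015630 to 100100416 with up to 10 exons. None of the 30-base words in the last 400 bases of 7 of the genes occurs in another annotated gene, and for SOX9 it was 4 of 371, so few reads of their 3′ ends could belong elsewhere.

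The 3 secreted-protein genes of chromosome 2 were not alone in their rise, since all 8 genes named at the start were higher in Ctcf-cKO mice. Over all barcodes, CST12 had the largest log2 fold change of these 8 (3.75) and CST9 the smallest (2.65). The 250 bases before the RefSeq start of DEFB36, CST9 and CST12 are shown here. They are RefSeq promoter sequences of GRCm38.p6 on the forward strand, and capitals mark the letters ACAAAG or, on the other strand, CTTTGT, a core that SOX proteins bind. The RefSeq start of CST12 lies 4 bases after the start of the gene given above, and those of DEFB36 and CST9 fall on it.
DEFB36, chr2:152604077-152604326: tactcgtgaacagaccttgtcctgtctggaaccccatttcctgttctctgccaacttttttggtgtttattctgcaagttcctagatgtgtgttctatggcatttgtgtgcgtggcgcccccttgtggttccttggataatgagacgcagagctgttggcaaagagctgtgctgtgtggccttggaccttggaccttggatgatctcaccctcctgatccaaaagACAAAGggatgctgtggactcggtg
CST9, chr2:148834897-148835146: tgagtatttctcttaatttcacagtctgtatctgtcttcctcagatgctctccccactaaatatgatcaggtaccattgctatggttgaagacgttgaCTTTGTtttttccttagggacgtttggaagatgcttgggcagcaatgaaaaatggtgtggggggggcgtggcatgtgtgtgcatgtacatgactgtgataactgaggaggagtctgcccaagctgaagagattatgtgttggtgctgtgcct
CST12, chr2:148789115-148789364: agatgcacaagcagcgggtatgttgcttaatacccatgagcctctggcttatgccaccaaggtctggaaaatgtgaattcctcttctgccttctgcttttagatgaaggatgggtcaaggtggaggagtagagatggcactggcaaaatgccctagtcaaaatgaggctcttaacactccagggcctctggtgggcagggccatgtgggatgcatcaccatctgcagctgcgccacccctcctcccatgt
The letters stood 25 to 20 bases before the start in DEFB36 and, reversed, 152 to 147 bases before it in CST9. Of the 6 members with a promoter entry (AARD and SOX9 have none in the table), these 2 held ACAAAG or ACAATG on either strand, against 25.2% of all 32851 promoters of this length. A core of GATA factors, spelled AGATAA, was in none of the 6 and in 9.99% of all promoters. TATAAA was in the promoter of KITL only, 25 bases before a RefSeq start that lies 191 bases after the start of the gene, and in 12.4% of all promoters.

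Of 24403 barcodes, 1424 held at least 1 count of a member, 102 held at least 3 different members and 41 held at least 4. At least 1 member was found in 2.78% and 4.83% of the barcodes of the WT mice and in 9.06% and 6.54% of those of the Ctcf-cKO mice. Among the 41 barcodes with 4 or more members, 11 were Sertoli-like cells. The others were 8 elongating spermatid-like, 4 spermatocyte-like and 1 round spermatid-like cells, 5 Leydig-like and 2 macrophage-like cells, 2 cells of an unnamed cluster, 5 barcodes with 200 genes or more but under the cell limit, and 3 barcodes under 200 genes. Over these 41 barcodes, the members' share of all counts of a barcode was highest in 3 from Ctcf-cKO mice, at 3.01% in a barcode of 499 counts and 173 genes, 2.55% in a cell of the unnamed cluster with 1765 counts, and 2.51% in a barcode of 557 counts and 184 genes.

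Sertoli-like cells came apart as a cluster of 13 cells at a clustering resolution of 1.3 and as 12 of the same cells at 0.5. At 0.9, the resolution of the other classes, they lay inside an unnamed cluster of 102 cells. The 8 members were kept out of the clustering, but other Sertoli cell genes were not. In these 13 cells 14 of 22 other Sertoli markers were higher than in the rest, led by DEFB19 (in 92.3% of the 13 cells against 35.2% of the others), CTSL, CLU and INHA. GATA4, GDNF and the follicle-stimulating hormone receptor FSHR were at 0 in all 13. They numbered 1 of 96 cells (1.04%, exact 95% interval 0.0264 to 5.67%) and 2 of 241 (0.830%, 0.101 to 2.97%) in the WT mice. Among Ctcf-cKO cells they were 4 of 228 (1.75%, 0.480 to 4.43%) and 6 of 246 (2.44%, 0.90 to 5.23%), so the intervals of all 4 mice overlapped. Intervals and limits here cover counting error only, and limits on a count of 0 take each count as a separate molecule, which it may not be. Values of 1 to 4 counts of a gene in a barcode were frequent and values of 5 rare (11.5% of entries at 4 and 2.81% at 5 in WT replicate 1, 29.97% and 3.54% in Ctcf-cKO replicate 1), and 82.0% to 95.2% of the members' entries were 4 or less.

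Of the 13 cells, 12 held at least 3 members and 1, from WT replicate 2, held none. In the 12, the members took 0.817% to 2.32% of all counts, with a median of 1.19%. AARD was found in 12 of the 13 cells, DEFB36 in 11, BASP1 and CST9 in 9 each, CLDN11 in 8, CST12 in 7 and SOX9 in 5. KITL was found in 1 cell only, with 2 counts, in WT replicate 2. The highest number in a cell was 43 counts of AARD in a cell of Ctcf-cKO replicate 3 with 4419 counts in all. Summed over these cells, AARD stood at 5273 and 2254 CPM in WT versus 4854 and 5716 CPM in Ctcf-cKO mice. The genotypes overlapped for AARD. They did not for the 8 genes together, at 8720 and 6198 CPM in WT versus 13869 and 13779 CPM in Ctcf-cKO mice. With 1 and 2 cells in the WT mice, 1 of them without any member, no difference per Sertoli-like cell was tested.

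**Figure D1:**
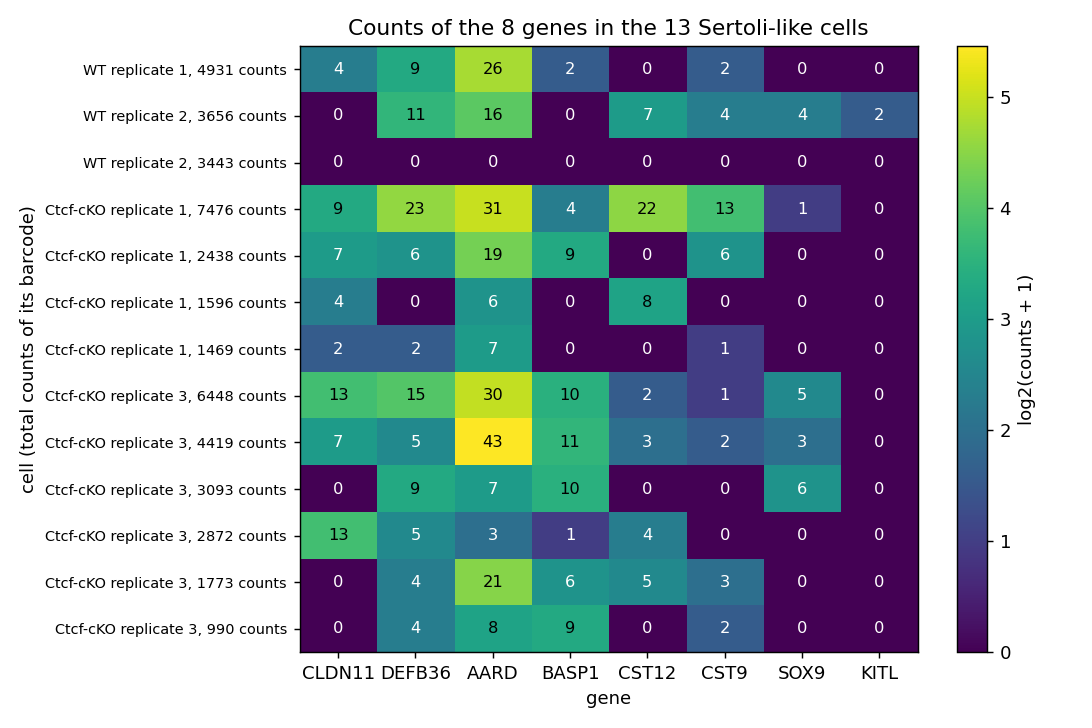
Counts of each of the 8 genes (columns) in each of the 13 Sertoli-like cells (lines, with the mouse and the total counts of the barcode), coloured by log2(counts + 1). AARD is present in 12 cells and KITL in 1, and a cell of WT replicate 2 holds none of the genes.

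Outside the Sertoli-like cells, the genes were spread over all classes of cell in the Ctcf-cKO mice. The 8 genes together stood at 957 and 1124 CPM in elongating spermatid-like cells, 1097 and 738 CPM in Leydig-like cells and 1113 and 1280 CPM in macrophage-like cells of Ctcf-cKO replicates 1 and 3. Fibroblast and peritubular-like cells had 1083 and 815 CPM, and round spermatid-like cells had 653 and 170 CPM. Spermatocyte-like cells had 848 and 2138 CPM, over only 13 and 11 cells, and in replicate 3 a pair of cells held 32 and 31 of the 88 counts, the other 9 being at 816 CPM. Round spermatid-like cells lay below every other class in both mice, and macrophage-like cells lay above Leydig-like and fibroblast and peritubular-like cells in both. Neither order held in replicate 1 without the 2 cells of each class that had most member counts, where macrophage-like cells fell to 456 CPM, below the 524 CPM of round spermatid-like and the 977 CPM of Leydig-like cells. The ranges over the 2 mice overlapped between the rest. The Sertoli-like cells stood far above all of them, at 13869 and 13779 CPM. The remaining cells of the unnamed cluster were at 5341 and 1623 CPM. In replicate 1 they lay between, but 2 of the 15 cells held 45 and 39 of the 168 counts, and the other 13 were at 3024 CPM. In replicate 3 they lay below the 2138 CPM of spermatocyte-like cells. At resolution 1.3 a cluster of 89 cells, 28 and 5 WT and 14 and 42 Ctcf-cKO, nearly matched them in cells per mouse. It had 5 elongating spermatid and 0 Sertoli markers higher, and PRM2 and OAZ3 among its leading genes. Whether these were the same cells was not tested, and the unnamed cells are not in the germ-like class. In WT mice the highest class other than the Sertoli-like cells was that of 4 macrophage-like cells, at 407 CPM. All values by class are descriptions, with no test.

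KITL had another distribution. Of its 114 counts in the Ctcf-cKO mice, 51 were in barcodes under 200 genes, 34 (29.8%) in Leydig-like cells and 18 in germ-like cells. In the Leydig-like cells it was at 108 and 84.5 CPM in replicates 1 and 3, where 4 cells of each mouse held it. The 10 Ctcf-cKO Sertoli-like cells had 0 counts of KITL, which allows up to 92.1 CPM at their depth, near the 99.2 CPM of KITL in the Leydig-like cells of both mice together. In macrophage-like cells it was at 0 in each mouse. Across the 811 cells the log-normalised level of KITL correlated with none of the other 7 members above a Pearson r of 0.0698, whereas DEFB36 and AARD reached 0.356 and DEFB36 and BASP1 0.352. These correlations describe 1 set of sparse counts whose points share libraries and depth.

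The genes whose level most resembled the mean of the members across the 811 cells were GATM (r = 0.451), a creatine-synthesis enzyme, TMEM184A (0.442), the beta-defensin DEFB19 (0.427), 1700011M02RIK (0.427), MARCKSL1 (0.426), the inhibin subunit INHA (0.422), CMAS (0.406) and clusterin, CLU (0.404). GATM was at 1704 CPM in the Sertoli-like cells and 48.6 CPM in the others, and DEFB19 at 5560 and 205 CPM.

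Over all barcodes of a mouse, the comparison between genotypes asks what share of a testis library was RNA of these genes. In such shares the number of Sertoli cells, their RNA per cell and the amount of RNA from other cells cannot be told apart. All 8 members passed the filter on low counts, and 18.4% of the 14552 genes tested were called higher in Ctcf-cKO. All 8 were called, with a median log2 fold change of 3.47 against -0.04 over all genes. The median of the 8 was 2.75 without WT replicate 1 and 4.24 without WT replicate 2, with all 8 called in both. In 32.3% of all genes, both Ctcf-cKO mice lay above both WT mice, as they did for all 8 members. P-values come from the quasi-likelihood test of edgeR, adjusted by Benjamini-Hochberg, and they rest on the spread between 2 mice per genotype.

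CLDN11, of the tight junctions, stood at 2.54 and 13.2 CPM in WT replicates 1 and 2 and at 71.3 and 94.1 CPM in Ctcf-cKO replicates 1 and 3. Its log2 fold change was 3.48 ± 0.56 (SE), with an adjusted p of 0.000901 in edgeR. SOX9, the fate-setting transcription factor, had only 3 and 17 counts in the WT mice, 0.448 and 3.50 CPM, but 53 and 41 in Ctcf-cKO mice, 19.98 and 25.7 CPM. It rose by 3.64 ± 0.73 on the log2 scale (adjusted p = 0.00357 in edgeR). KITL, the KIT ligand, was at 3.13 and 1.85 CPM in WT versus 26.8 and 27.0 CPM in Ctcf-cKO mice, with a fitted log2 change of 3.46 ± 0.50 (adjusted p = 0.000393 in edgeR). Both Ctcf-cKO mice were close to each other for KITL and SOX9, and WT replicate 1 was the lowest mouse for CLDN11 and SOX9.

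Among the secreted proteins, DEFB36 was at 10.1 and 19.96 CPM in WT versus 85.2 and 129 CPM in Ctcf-cKO mice (log2 fold change 2.89 ± 0.37, adjusted p = 0.000168 in edgeR). CST12 was at 3.13 and 12.3 CPM against 105 and 90.4 CPM, the largest fitted rise of the 8 at 3.75 ± 0.49 (adjusted p = 0.00022 in edgeR). CST9 was at 5.07 and 26.5 CPM against 103 and 84.1 CPM and rose least, by 2.65 ± 0.55 (adjusted p = 0.00424 in edgeR). CST9 was also the member that lost its call under an alternative, with an adjusted p of 0.063 in DESeq2 and 0.054 without Ctcf-cKO replicate 1. WT replicate 2 was higher than WT replicate 1 for all of DEFB36, CST12 and CST9, and as a ratio, though not in CPM for DEFB36 and CST12, the WT mice were farther apart than the Ctcf-cKO mice.

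AARD was at 35.2 and 80.9 CPM in WT versus 549 and 582 CPM in Ctcf-cKO mice (log2 fold change 3.34 ± 0.33, adjusted p = 2.97e-05 in edgeR). BASP1 was at 8.66 and 19.8 CPM against 154 and 156 CPM (3.52 ± 0.36, adjusted p = 3.53e-05 in edgeR). The Ctcf-cKO mice lay close to each other for both genes. When the 13 Sertoli-like cells were left out, all 8 members were still called, with a median log2 fold change of 3.36.

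Other Sertoli cell genes moved the same way. Of 25 listed, 24 were in the tables, 21 were tested and 20 were called higher in Ctcf-cKO, with a median log2 fold change of 3.19. They included the anti-Müllerian hormone receptor AMHR2 (3.64 ± 0.30), clusterin CLU (3.96 ± 0.27), the inhibin subunit INHA (3.79 ± 0.28) and the transcription factors WT1 (3.37 ± 0.55) and GATA4 (4.16 ± 0.66). INHBB was not called (1.37 ± 0.98, adjusted p = 0.32 in edgeR). GATA4 was among the genes at 0 in the 13 Sertoli-like cells. In the Leydig-like cluster 7 of the 22 Sertoli markers were higher than in other cells. The part of Leydig RNA in the rise of the listed genes was not tested. Of 8 other junction genes, 6 were tested and 3 were called higher, the tight junction genes CLDN3 (3.54) and F11R (3.25) and the gap junction gene GJA1 (1.86), while the tight junction scaffold TJP1 had a log2 fold change of -0.04. The receptor KIT had a log2 fold change of 2.18 ± 0.42 (adjusted p = 0.00298 in edgeR).

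Markers of most other somatic cells rose beside them, and those of endothelial cells least. Of the endothelial markers 1 of 4 tested was called higher in edgeR, with sums of 19.4 and 25.1 CPM in WT versus 37.3 and 56.5 CPM in Ctcf-cKO mice. Fibroblast and peritubular markers were higher for 8 of 9 tested genes, with sums of 260 and 298 CPM against 1737.5 and 1167 CPM. Leydig markers were higher in Ctcf-cKO for 14 of 15 tested genes, with a summed level of 275 to 549 CPM in the WT mice and 4736 to 5304 CPM in the Ctcf-cKO mice. Macrophage markers were higher for 12 of 12, with sums of 133 to 328 CPM and 3748 to 3975 CPM, and red blood cell markers for 4 of 4, with 18.5 to 198 CPM and 1404 to 2139 CPM. Sertoli markers summed to 369 to 417 CPM in the WT mice and 4303 to 4333 CPM in the Ctcf-cKO mice, with none of the 22 at 0 in every library. CLU and ALDH1A1, which were also among the 10 leading genes of the Leydig-like cluster, made up 62.7% to 63.2% of that sum in the Ctcf-cKO mice, and the other 20 markers summed to 135 and 228 CPM in WT versus 1592 and 1607 CPM in Ctcf-cKO mice. Round spermatid markers fell for 11 of 15 genes and spermatocyte markers for 8 of 16, where 10.1% of all genes tested were called lower. Of the elongating spermatid markers 0 of 16 were called lower and 1 higher in edgeR, with sums of 84515 and 117192 CPM in WT versus 117278 and 120413 CPM in Ctcf-cKO mice. Of the spermatogonia markers 3 of 6 tested were called higher and 0 lower in edgeR. Their sums were 60.6 and 75.1 CPM in WT versus 157 and 121 CPM in Ctcf-cKO mice. That list holds KIT, which Leydig cells carry as well, and DMRT1, which is also among the Sertoli markers. The part of these marker shifts in the members' rise was not tested.

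**Figure D2:**
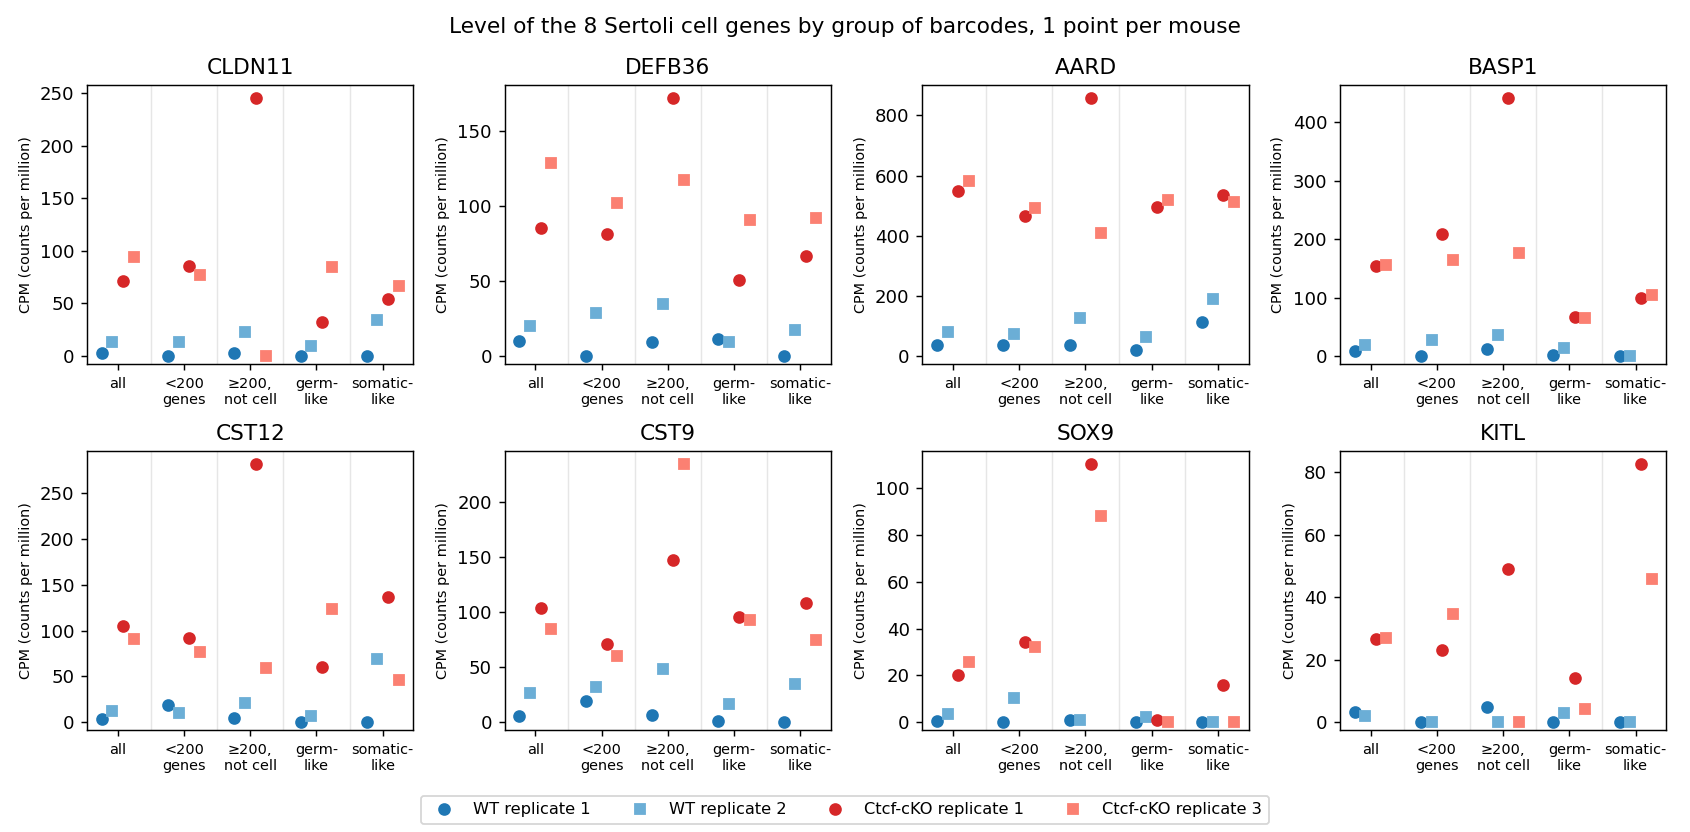
Level of each gene in CPM (vertical axis, linear, with its own scale in each panel) in all barcodes, barcodes under 200 genes, barcodes of 200 genes or more under the cell limit, germ-like cells and somatic-like cells, with 1 point per mouse. In all barcodes the 2 Ctcf-cKO mice sit above the 2 WT mice for each gene, and SOX9 is near 0 in germ-like cells of every mouse.

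Barcodes under 200 genes numbered 1367 and 4392 in WT versus 5592 and 6114 in Ctcf-cKO mice, and they held 1.57%, 12.1%, 40.8% and 46.9% of the counts of their library. A fixed gene number thus cut the libraries at different points, since in WT replicate 1 most barcodes below the cell limit had over 200 genes. At least 1 member was found in 5 and 59 of these barcodes in the WT mice and in 338 and 270 in the Ctcf-cKO mice. No WT barcode and 9 Ctcf-cKO barcodes under 200 genes held 3 or more members. In the Ctcf-cKO mice 39.7% of all counts of the 8 genes lay in these barcodes, with the lowest share for CST9 (29.9%) and the highest for SOX9 (64.9%). In the WT mice the share was 9.37%, and 53.6% lay in barcodes of 200 genes or more under the cell limit. The Ctcf-cKO mice had only 99 and 47 barcodes of that kind, where SOX9 was at 110 and 88.0 CPM, on 9 and 3 counts, and CLDN11 was at 245 CPM in replicate 1 and at 0 counts in replicate 3, which allows up to 88.0 CPM.

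Within the barcodes under 200 genes, 6 of the 8 members were called higher in Ctcf-cKO, where 5.84% of 7879 tested genes were. For all 8 both Ctcf-cKO mice lay above both WT mice, which was so in 22.1% of all genes. The median log2 fold change of the 8 was 3.06, against 0.07 over all genes, and 2.85 with KITL, at 0 in both WT mice, set against 3 WT counts. Leaving out WT replicate 1 gave a median of 2.77 and leaving out WT replicate 2 gave 7.35, a fit in which 5 of the 8 had no WT count. AARD was at 38.1 and 74.5 CPM in WT versus 466 and 492 CPM in Ctcf-cKO mice (3.11 ± 0.40, adjusted p = 1.14e-05 in edgeR). BASP1 had 0 and 16 counts, 0 and 27.1 CPM, against 226 and 123 counts, 209 and 164 CPM (3.33 ± 0.53, adjusted p = 0.000193 in edgeR). KITL had 0 counts in both WT mice but 25 and 26 in Ctcf-cKO replicates 1 and 3, or 27.9 CPM over both, where 0 of 695311 counts in the WT mice allows up to 4.31 CPM at 3 counts.

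CST9 did not pass in these barcodes (19.1 and 32.2 CPM against 71.2 and 60.2, log2 fold change 1.42 ± 0.58, adjusted p = 0.168 in edgeR), nor did SOX9 (0 and 10.2 CPM against 34.2 and 32.1, 2.24 ± 0.90, adjusted p = 0.159 in edgeR). WT replicate 1 had only 104983 counts in barcodes under 200 genes, where 2 counts amount to 19.1 CPM, and 5 of the members were at 0 there. Leaving out either Ctcf-cKO mouse, or keeping only barcodes under 100 genes, left 2 members called, AARD and BASP1. DESeq2 called 4, AARD, BASP1, CLDN11 and CST12, but neither DEFB36 (adjusted p = 0.0934) nor KITL (adjusted p = 0.0675). With all barcodes under the cell limit edgeR called 7, SOX9 among them (4.53 ± 0.80, adjusted p = 0.00724) and CST9 not.

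Germ-like cells, the cells of clusters named from spermatid and spermatocyte markers, numbered 58 and 227 in WT versus 156 and 120 in Ctcf-cKO mice. Different clusters made up the class in the mice: elongating spermatid-like cells were 38 and 55 of them in WT versus 101 and 98 in Ctcf-cKO mice, and round spermatid-like cells 15 and 146 against 42 and 11. A round spermatid-like cluster of 111 cells had 107 from WT replicate 2. It had 11 of 15 round and 16 of 16 elongating spermatid markers higher, so its markers do not settle the stage. An elongating spermatid-like cluster of 27 had none from WT mice. Another, of 149 cells (4 and 39 WT, 69 and 37 Ctcf-cKO), had MT-ND4, MT-CYTB, HBB-BS and GSTM1 beside PRM1 and TNP2 among its leading genes. In it 8 of 16 elongating spermatid and 3 red blood cell markers were higher. AARD was at 525 CPM there and 144 CPM in the elongating spermatid-like cluster of 116, over mice in unlike shares. At least 1 member was found in 27.6% (exact 95% interval 16.7 to 40.9%) and 46.7% (40.1 to 53.4%) of the WT germ-like cells and in 78.2% (70.9 to 84.4%) and 54.2% (44.8 to 63.3%) of those of the Ctcf-cKO mice. These cells had a median of 23545 and 8322 counts in WT versus 4834 and 2469 in Ctcf-cKO mice. Thinned to 900 counts per cell, which every cell reached, the shares were 6.90% and 14.5% against 51.9% and 39.2%. For AARD alone the thinned shares were 5.17% and 6.61% against 34.0% and 27.5%. In somatic-like cells of the Ctcf-cKO mice, Leydig-, macrophage- and fibroblast-like together, AARD was found in 28.3% and 22.8% after thinning, a little under the germ-like cells of the same mouse, and this difference was not tested.

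Of the 8 members, 6 passed the filter on low counts in germ-like cells and all 6 were called higher in Ctcf-cKO, where 5.48% of 9808 tested genes were. SOX9 and KITL did not pass it. The 6 lay higher in both Ctcf-cKO mice than in both WT mice, as 24.9% of all tested genes did. Their median log2 fold change was 3.32, and 3.98 with all 6 called when those 2 clusters, of 111 and 27 cells, were left out. Leaving out WT replicate 1 or 2 gave medians of 2.51 and 5.97 over the 7 members then tested. In the second of these fits WT replicate 1 was the only WT mouse, and its germ-like cells had 0 counts of CLDN11, CST12, SOX9 and KITL. AARD was at 21.05 and 63.9 CPM in WT versus 497 and 517 CPM in Ctcf-cKO mice (log2 fold change 3.53 ± 0.40, adjusted p = 0.000179 in edgeR). CST12 had 0 and 16 counts against 68 and 60, or 0 and 6.31 CPM against 60.1 and 124 CPM (4.6 ± 0.78, adjusted p = 0.00355 in edgeR). CST9, at 1.32 and 16.6 CPM against 95.5 and 92.8 CPM, rose by 3.27 ± 0.66 (adjusted p = 0.0111 in edgeR).

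DEFB36 in germ-like cells was at 11.2 and 9.47 CPM in WT versus 50.4 and 90.7 CPM in Ctcf-cKO mice (2.73 ± 0.53, adjusted p = 0.00867 in edgeR), and BASP1 was at 1.32 and 13.4 CPM against 66.3 and 66.0 CPM (3.05 ± 0.70, adjusted p = 0.0208 in edgeR). CLDN11 was at 0 and 9.86 CPM against 32.7 and 84.5 CPM (3.37 ± 0.91, adjusted p = 0.0476 in edgeR) and was not called without Ctcf-cKO replicate 3, with an adjusted p of 0.2. DESeq2 called neither CLDN11 nor CST12. Leydig markers in these same germ-like cells summed to 124 and 212 CPM in WT versus 3070 and 2464 CPM in Ctcf-cKO mice, and red blood cell markers to 1.32 and 10.7 against 3102 and 930 CPM, so the markers of cells other than Sertoli cells moved with the members there. Their part in the result was not tested.

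**Figure D3:**
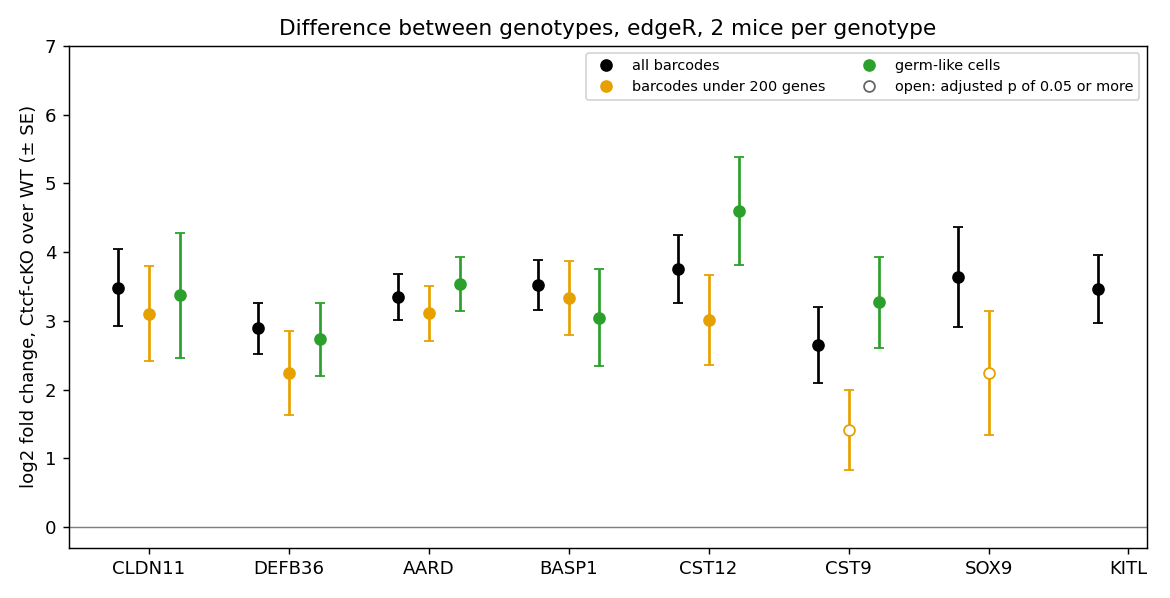
Log2 fold change of Ctcf-cKO over WT with its standard error (vertical axis) for each gene in all barcodes, barcodes under 200 genes and germ-like cells, from edgeR with 2 mice per genotype. Filled points have an adjusted p under 0.05. SOX9 in germ-like cells and KITL outside all barcodes have no point, because they did not pass the filter or had 0 counts in both WT mice.

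In somatic-like cells, with 9 and 7 cells in WT versus 53 and 79 in Ctcf-cKO mice, 5 members were tested and edgeR called 0, as it called 0 of all 3552 genes tested. An unadjusted p under 0.05 was found for 3 of them, DEFB36, AARD and BASP1, without a count of all genes at that level to set it against. DESeq2 called 0 members. AARD was at 113 and 191 CPM in WT versus 535 and 512 CPM in Ctcf-cKO mice (log2 fold change 1.95 ± 0.50, adjusted p = 0.575 in edgeR). BASP1 had 0 counts in both WT mice but 31 and 25 in Ctcf-cKO replicates 1 and 3, or 101 CPM over both, where 0 of 137547 counts in the WT mice allows up to 21.8 CPM at 3 counts. Without WT replicate 1 the median log2 fold change of the 7 members then tested was 1.76, against 0.79 over all genes. Without WT replicate 2 it was 7.09 against 0.34, a fit in which most members had no WT count.

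The level of each gene in germ-like cells was then set against the free RNA of the same mouse. With the mouse as a block, edgeR called 0 of the 6 members tested as different between germ-like cells and barcodes under 200 genes, and DESeq2 also called 0, where edgeR called 0.195% of 8190 genes. The log2 differences, germ-like cells over these barcodes, were all below 0, with a median of -0.49 against 0.02 over all genes. They ran from -0.09 ± 0.23 for AARD and -0.11 for CST9 through -0.36 for CST12, -0.63 for DEFB36 and -0.65 for CLDN11 to -1.39 for BASP1. BASP1 alone had an unadjusted p under 0.05 (0.000443, adjusted p = 0.149 in edgeR), and it was called lower in germ-like cells without WT replicate 1, with counts divided by 4, and against all barcodes under the cell limit. Across the alternatives the adjusted p of BASP1 ran from 0.00144 to 0.988. With the Sertoli-like and all other cells included, edgeR called 0 of the 7 members tested as different between cells and these barcodes, where it called 0.162% of 8638 genes. BASP1 was again the 1 member with an unadjusted p under 0.05 (log2 difference -0.69 ± 0.32, adjusted p = 0.629 in edgeR), and DESeq2 called 0.

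In counts, the germ-like cells of Ctcf-cKO replicates 1 and 3 held 562 and 251 counts of AARD. At the share AARD had in their barcodes under 200 genes, the number would be 528 and 239. For CST9 108 and 45 counts were found against 80.6 and 29.2 at that share, and for CST12 68 and 60 against 104 and 37.0. AARD and CST9 were thus at or above the free RNA level in both Ctcf-cKO mice, while CST12 lay below it in one and above it in the other. BASP1 fell short in both, with 75 and 32 counts against 237 and 79.8.

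SOX9 stood farthest from the free RNA. The germ-like cells of the Ctcf-cKO mice held 1 and 0 counts of SOX9, against 38.7 and 15.6 at its share in barcodes under 200 genes and 44.8 and 16.7 at its share in all barcodes under the cell limit. The 0 of 485070 counts in replicate 3 allows up to 6.18 CPM, while the barcodes under 200 genes of that mouse were at 32.1 CPM. In the WT mice, germ-like cells held 0 and 6 counts against 1.0 and 9.51 at the share below the cell limit. SOX9 was therefore far below that share in both Ctcf-cKO mice, while its WT counts were too few to show a shortfall. BASP1 was at 0.113 to 0.404 of that share in all 4 mice. SOX9 had too few counts in germ-like cells to pass the filter and was not tested. KITL also fell short, with 16 and 2 counts against 26.2 and 16.9 in Ctcf-cKO replicates 1 and 3, and in WT replicate 2 it had 7 counts where the free RNA had 0.

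**Figure D4:**
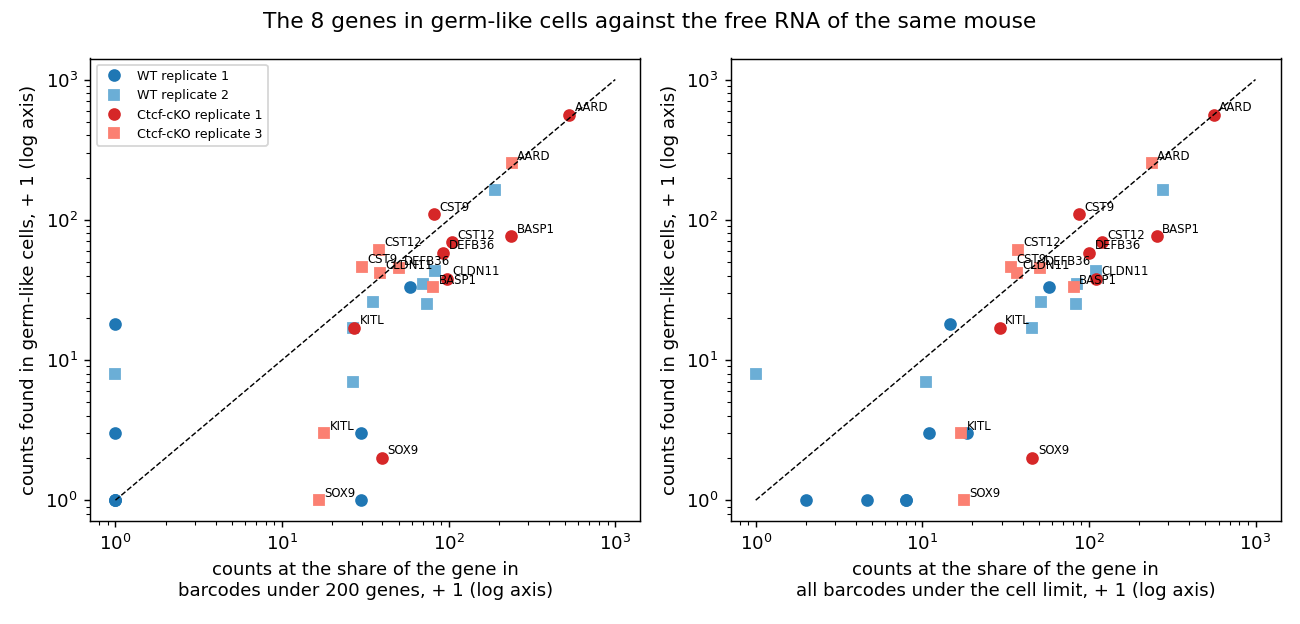
Counts found in germ-like cells (vertical axis) against the counts at the gene's share in the free RNA of the same mouse (horizontal axis), both plus 1 on log axes, for barcodes under 200 genes (left) and all barcodes under the cell limit (right), with 1 point per gene and mouse and names at the Ctcf-cKO points. The dashed line marks equal numbers. In both Ctcf-cKO mice AARD lies on or near it, and SOX9 and BASP1 lie below it.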

How the data were processed

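The authors aligned the 3′ reads of 2 WT and 2 Ctcf-cKO libraries to GRCm38 and deposited unnormalized counts for each barcode and gene symbol. How reads of a molecule were merged is not given in the sources used here. The 8 members and all lists were chosen with earlier results of these data known. Barcodes with 200 to 7000 genes and at most 10% mitochondrial counts, and at least 3 times the median count of ranks 301 to 1000 of their library (limits of 4352, 2384, 1299 and 911 counts), were cells, and 9 and 7 WT barcodes outside the gene or mitochondrial limits were left out. Scrublet marked 2, 9, 5 and 13 cells as doublets, which were kept. Cells were clustered in Seurat 5.3.0 without the members (2000 variable genes, 15 components, resolution 0.9) and clusters named by at least 3 listed markers. Libraries were aligned before clustering by a rewritten form of the Harmony algorithm, not by its package. Counts were summed per mouse and tested in edgeR 4.0.16 (TMM, filterByExpr, quasi-likelihood F test, adjusted p under 0.05), checked on simulated counts. The 2 replicates of a genotype are separate mice. Genotypes were compared in all barcodes, barcodes under 200 genes, germ-like and somatic-like cells, and cells or germ-like cells were compared with barcodes under 200 genes with the mouse as a block. Named genes were the 8 members, the listed Sertoli and junction genes, KIT and the 8 genes most correlated with the members' mean. Depth limits precision: 1593546 to 6701235 counts per library. Alternatives were DESeq2 1.42.0, no filter, each mouse left out, barcodes under 100 genes, 5 times the plateau, the barcodes with most genes, no doublets, thinned cells and resolutions of 0.5 and 1.3. Counts divided by 4, all barcodes under the cell limit, no Sertoli-like cells, no clusters of 1 library or genotype, and classes without their 2 cells richest in member counts were added after seeing the data.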

Additional observations from a re-analysis of the deposited data

How the results depend on the processing

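In the 4 comparisons of genotypes, 216 values of members under alternatives kept the direction of the value reported, 19 of them lost a call and 9 gained one. Among barcodes under 200 genes the count of members called, 6, became 2 without a Ctcf-cKO mouse (2 to 6 over the mice left out) and 2 with barcodes under 100 genes. In somatic-like cells the count of 0 ran from 0 to 4 over the mice left out. For germ-like cells against barcodes under 200 genes the 0 called became 1 without WT replicate 1 (0 to 1 over the mice), 1 with counts divided by 4 and 1 against all barcodes under the cell limit. Over all genes, the number called higher in Ctcf-cKO was 2673 in all barcodes (1373 and 1618 without Ctcf-cKO replicate 1 or 3), 537 in germ-like cells (276 without Ctcf-cKO replicate 1), 0 in somatic-like cells (480 and 157 without WT replicate 1 or 2) and 460 among barcodes under 200 genes (228 in DESeq2, 131 to 1029 over the mice left out, 149 under 100 genes, 1018 for all barcodes under the limit). Those called lower in germ-like cells than in free RNA were 16 (3 to 91 over the mice, 42 with counts divided by 4, 36 without a filter), and in cells 12 (3 to 77, 26 and 22). Without a filter on low counts the median of all genes shifted to -0.31, 0.42 and -0.21 in all barcodes, barcodes under 200 genes and germ-like cells. The cells with 3 or more members differed by 12.6 percentage points between genotypes and by 5.51 when cells were thinned. The number of cells in a Sertoli-like cluster was 0 at resolution 0.9, 12 at 0.5 and 13 at 1.3.

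Differences between cells and free RNA changed sign for several members that were not called in either direction. In cells against barcodes under 200 genes, the log2 difference of CST12 became -0.15 in DESeq2, -0.32 against all barcodes under the cell limit and -0.29 without the Sertoli-like cells. CST9 became -0.122 and -0.0175 under the last 2, DEFB36 -0.45 without the Sertoli-like cells, and KITL -0.0118 in DESeq2, -0.11 with barcodes under 100 genes and -0.20 against all barcodes under the limit. Over the mice left out, this difference ran from -0.51 to 0.24 for CLDN11, -0.17 to 0.38 for DEFB36, -0.25 to 0.27 for CST12, -0.28 to 0.43 for CST9 and -0.31 to 0.12 for KITL. In germ-like cells, CST9 ran from -0.50 to 0.20 over the mice left out, barcodes under 100 genes gave 0.14 for AARD, 0.10 for CST12 and 0.96 for CST9, and counts divided by 4 gave 0.19 for CST9. The causes of these changes were not tested. No paired analysis was possible because the genotypes share only replicate number 1, so fits with a replicate block were limited to cells and free RNA of the same mouse.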
